A study of Homo sapiens with 6 samples.

Results

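The genes described here repair DNA double-strand breaks. They were taken by gene symbol, with no threshold on their values: XRCC5, XRCC6, PRKDC, LIG4, XRCC4, NHEJ1, ATM, BRCA1 and RAD51D, which are 9 of the 21301 genes in the table. All 9 had a row and all 9 passed the filter on low counts, which left 19694 genes for testing. The cells were SH-SY5Y, an established human neuroblastoma line used as a model of neurons. They were treated for 72 h with siRNA at 10 nM against PSF (siPSF, the siRNA numbered 2 in the study's methods) or with a control siRNA (siControl), and RNA-seq was made from 3 biological replicates of each treatment. As a model of PSF loss, siPSF rests on 1 siRNA in 1 cell line, and no allele or other agent was part of either treatment.

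A double-strand break is mended mainly by non-homologous end joining or by homologous recombination. In end joining, the Ku heterodimer binds the broken ends and recruits the kinase DNA-PKcs, and a ligase complex seals them. In homologous recombination, the ends are cut back to single strands, and BRCA1, BRCA2 and their partners guide them into the sister chromatid, which is present in S and G2 phase. ATM is the kinase that signals the break. PSF, encoded by SFPQ, is an RNA-binding protein of paraspeckles. Together with its partner NONO it is known to promote end joining, and it is known to bind RAD51D.

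BRCA1 fell in siPSF cells to 76.1% of its siControl level (95% interval 66.1% to 87.7%, n = 3 libraries in each group), and it was the only gene of the 9 to pass the test across all genes. The other 8 did not pass, although at an unadjusted p under 0.05, which 29.8% of all genes reached, 4 of the 9 would have. Among them PRKDC and RAD51D were lower and NHEJ1 was higher in every siPSF library than in any siControl library, and XRCC5, XRCC6, LIG4, XRCC4 and ATM overlapped between the groups. Of all genes tested, 14.9% were called, 8.27% as lower and 6.65% as higher in siPSF, so 1 called gene in 9 is close to that share. Groups that did not overlap were found for 34.4% of all genes, 17.8% with siPSF below and 16.7% with siPSF above. Here this held for 4 of 9, 3 with siPSF below and 1 with siPSF above. Replicate 3 held the highest siControl value for 7 of the 9 genes. All 9 were read from the same 6 libraries, so their differences are not separate observations. The median log2 fold change was -0.02 over the 9 genes and 0.010 over all genes tested.

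The RNA of the siRNA target itself was checked first. SFPQ measured 372, 356 and 401 CPM (read counts scaled to a common library size, with TMM factors) in siControl and 209, 193 and 165 CPM in siPSF. The siPSF libraries were therefore all below the siControl libraries, at 50.2% of their level (log2 fold change -0.99 ± 0.10 SE). The adjusted p was 9.5e-05, from edgeR's quasi-likelihood fit over all genes with the correction of Benjamini and Hochberg, and a gene was called where this value was under 0.05. The libraries held between 101540520 and 132420931 counts, and the 9 genes had between 604 and 73084 counts in any library. Of 10 markers of noradrenergic neuroblastoma, all were tested, and their summed level ran from 5322 to 6161 CPM in siControl and from 4739 to 5854 CPM in siPSF. DBH, which makes noradrenaline, was called lower at 62.4% of its siControl level, TH was also called lower, and GATA3 was called higher at 123% (edgeR, adjusted p = 0.0024, 0.025 and 0.032). TH, the first enzyme of catecholamine synthesis, stayed under 1 CPM, with a mean of 0.741 ± 0.0945 CPM in the siControl libraries and 0.320 ± 0.130 CPM in the siPSF libraries (SD, n = 3). Of 8 mesenchymal markers 7 were tested, with a summed level of 282.4 to 303.3 CPM in siControl and 242.9 to 271.1 CPM in siPSF, and FN1 and COL3A1 were called lower. At an unadjusted p under 0.05 there were 5, of which 2 were lower, against 29.8% of all genes in either direction. FOSL1, COL1A1 and CD44 were the higher ones, at 178%, 146% and 144% of their siControl level, and they were not called by edgeR. The largest parts of the summed mesenchymal level were TWIST1, which was not called, and FN1. Their means were 204 and 78.7 CPM in siControl and 191 and 52 CPM in siPSF. COL3A1 overlapped between the groups. The part of these marker changes in the results of the 9 genes was not tested. Of 6 markers of other cell types only EPCAM was in the table, and it rose from 2.06 ± 0.326 to 3.73 ± 0.876 CPM (edgeR, adjusted p = 0.014).

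Levels of different genes can be set side by side only per length, and the authors' FPKM (fragments per kilobase of exon, scaled to the mapped reads) gives this. The Ku genes were the most abundant in siControl, XRCC5 at 131 ± 8.15 FPKM and XRCC6 at 115 ± 2.11 FPKM (SD, n = 3), and their libraries did not overlap. PRKDC followed at 37.2 ± 3.57 FPKM and BRCA1 at 10.3 ± 1.56 FPKM, each apart from its neighbours in every library. ATM at 6.05 ± 0.985 FPKM and NHEJ1 at 5.44 ± 0.394 FPKM overlapped. So did LIG4 at 4.05 ± 0.482 FPKM, XRCC4 at 4.0 ± 0.478 FPKM and RAD51D at 3.39 ± 0.312 FPKM. The genes that encode the Ku heterodimer were thus far above those of the ligase complex at the RNA level. In siPSF the means were 130 FPKM for XRCC5, 108 for XRCC6, 29.7 for PRKDC and 7.33 for BRCA1, in the same order. NHEJ1 at 6.0 FPKM stood before ATM at 5.62 FPKM there, and XRCC4 at 3.93 FPKM before LIG4 at 3.40 FPKM, with overlap in both pairs.

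**Figure D1:**
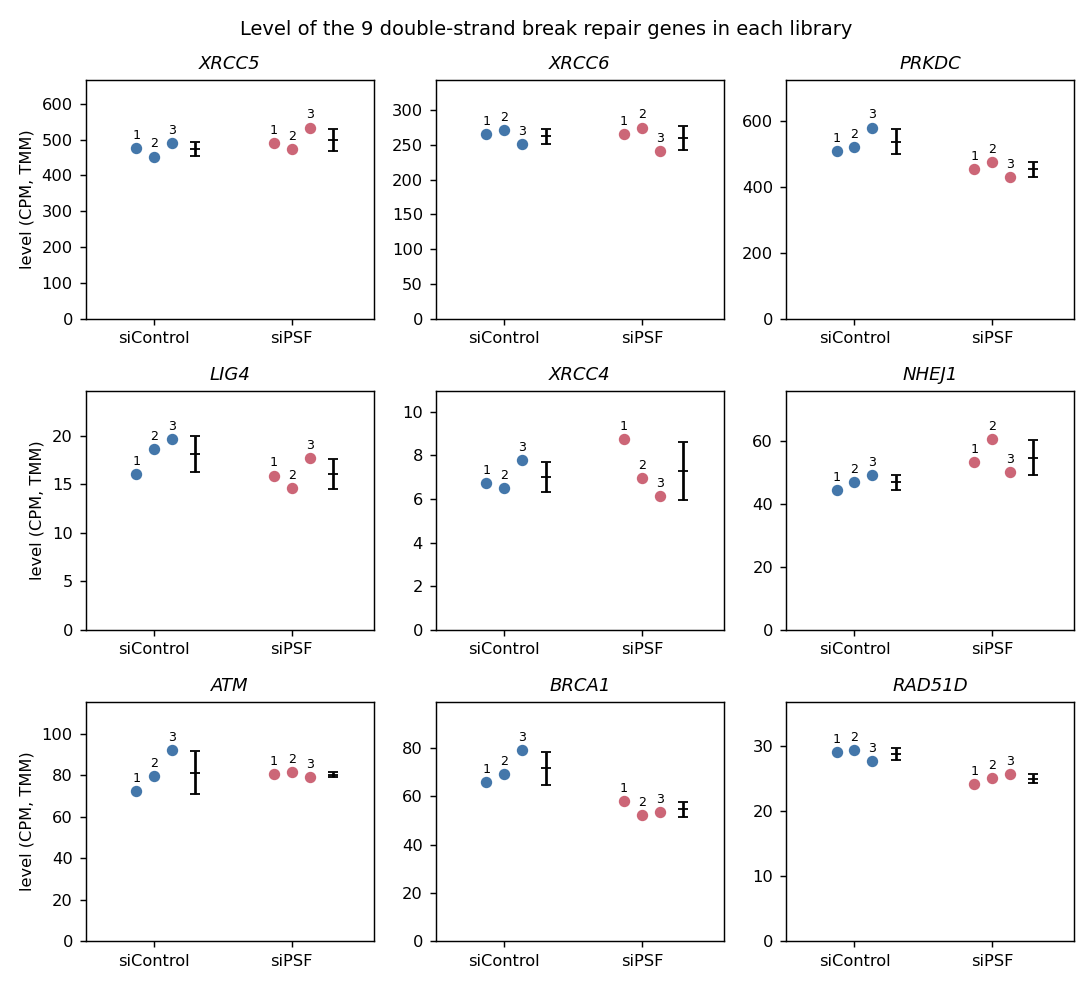
Level of each of the 9 genes in CPM (vertical axis, from 0, with its own range in each panel) in the siControl libraries (blue) and the siPSF libraries (red), with the replicate number over each point and the mean ± SD in black. BRCA1, PRKDC and RAD51D have all siPSF points below all siControl points, NHEJ1 has them above, and the other 5 overlap.

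XRCC5 encodes Ku80, which with Ku70 forms the ring that slides onto a broken end. XRCC5 (gene ID 7520; GRCh38.p14 chr2:216109348-216206293, plus strand) measured 478, 453 and 492 CPM in siControl and 490, 473 and 534 CPM in siPSF. The groups overlapped, and the 95% interval of the log2 fold change, 0.07, ran from -0.11 to 0.26 (edgeR, adjusted p = 0.60). XRCC6 (gene ID 2547; chr22:41621295-41664041, plus strand), which encodes Ku70, measured 265, 272 and 251 CPM in siControl and 265, 275 and 241 CPM in siPSF. Its groups overlapped almost entirely, and its interval ran from -0.20 to 0.17 around an estimate of -0.02 on the log2 scale (edgeR, adjusted p = 0.93). A processed copy of XRCC6, XRCC6P2, had 23 to 43 counts in a library, against 23733 or more for XRCC6 itself.

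PRKDC encodes DNA-PKcs, the large kinase that Ku recruits. PRKDC (gene ID 5591) measured 509, 520 and 580 CPM in siControl and 453, 476 and 430 CPM in siPSF. All siPSF libraries lay below all siControl libraries, yet the log2 fold change of -0.24 ± 0.087 SE (95% interval -0.43 to -0.05) did not pass the correction across all genes (edgeR, adjusted p = 0.081). When limma was run on the FPKM values with a pseudocount of 0.5 instead of the counts, the estimate was -0.32 and the gene was called (adjusted p = 0.031). That fit differs from the main one in test and filter as well as in unit.

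LIG4 is the ligase of end joining, and XRCC4 is the scaffold that holds it. LIG4 (gene ID 3981; chr13:108207442-108218349, minus strand) measured 16.1, 18.6 and 19.7 CPM in siControl and 15.9, 14.6 and 17.7 CPM in siPSF. XRCC4 (gene ID 7518; chr5:83077547-83374473, plus strand) measured 6.73, 6.5 and 7.77 CPM in siControl and 8.76, 6.94 and 6.13 CPM in siPSF. Both overlapped between the groups. The log2 fold change was -0.17 for LIG4 (95% interval -0.42 to 0.07; edgeR, adjusted p = 0.34) and 0.06 for XRCC4 (-0.27 to 0.38; edgeR, adjusted p = 0.84). The interval of XRCC4, the gene with the fewest counts of the 9, was the widest.

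NHEJ1 encodes XLF, which bridges the ends together with XRCC4. NHEJ1 (gene ID 79840; chr2:219069357-219160815, minus strand) measured 44.5, 46.9 and 49.3 CPM in siControl and 53.2, 60.7 and 50.1 CPM in siPSF. It was the only gene of the 9 with all siPSF libraries above all siControl libraries, although the lowest siPSF and the highest siControl library nearly touched. Its log2 fold change of 0.22 ± 0.096 SE (95% interval 0.01 to 0.43) did not pass the correction (edgeR, adjusted p = 0.14).

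Because Ku70 and Ku80, or LIG4 and XRCC4, work as partners, the balance between partners was also compared within each library as a log2 ratio of CPM. XRCC6 to XRCC5 measured -0.85 ± 0.12 in siControl and -0.94 ± 0.19 in siPSF (SD, n = 3; exact permutation test, two-sided p = 0.6). LIG4 to XRCC4 measured 1.37 ± 0.13 in siControl and 1.16 ± 0.34 in siPSF (exact permutation p = 0.5), and NHEJ1 to XRCC4 measured 2.75 ± 0.10 and 2.92 ± 0.28 (exact permutation p = 0.4). The difference for XRCC6 to XRCC5, -0.09, was smaller than the SD of either group. For LIG4 to XRCC4, at -0.22, and NHEJ1 to XRCC4, at 0.17, it was larger than the SD in siControl and smaller than the SD in siPSF. After adjustment over the 3 ratios each exact p was 0.6, and 3 libraries against 3 cannot give an exact p below 0.1.

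ATM phosphorylates many targets at a break, among them the checkpoint kinase CHEK2. ATM (gene ID 472; chr11:108223067-108369102, plus strand) measured 72.3, 79.5 and 92.4 CPM in siControl and 80.7, 81.5 and 79.1 CPM in siPSF. The siPSF libraries lay inside the siControl range, and the log2 fold change was -0.02 (95% interval -0.22 to 0.19; edgeR, adjusted p = 0.93).

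BRCA1, a ubiquitin ligase with BARD1, favours resection and helps to bring BRCA2 to the break. BRCA1 (gene ID 672; chr17:43044295-43170327, minus strand) measured 66.1, 69.4 and 79.4 CPM in siControl and 58.1, 52.2 and 53.5 CPM in siPSF, from 5270 to 10005 counts a library. The highest siPSF library lay below the lowest siControl library. The means were 71.7 ± 6.92 CPM and 54.6 ± 3.10 CPM (SD over 3 libraries), and the log2 fold change was -0.39 ± 0.094 SE (95% interval -0.60 to -0.19; edgeR, adjusted p = 0.015). Without siPSF replicate 2 the estimate was -0.36 and the adjusted p 0.0505, just past the threshold, and without any other 1 library BRCA1 was called. It passed only narrowly without siControl replicate 2 or siControl replicate 3 (edgeR, adjusted p = 0.0453 and 0.0482). These are levels in bulk RNA, in which fewer cells of a type and less RNA per cell cannot be told apart.

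RAD51D belongs to a complex with XRCC2 that acts on the resected single strands. RAD51D (gene ID 5892; chr17:35092221-35119860, minus strand) measured 29.1, 29.4 and 27.7 CPM in siControl and 24.2, 25.0 and 25.7 CPM in siPSF. The groups did not overlap and their spread was small, but the difference was also small, at a log2 fold change of -0.20 ± 0.089 SE (95% interval -0.40 to -0.01; edgeR, adjusted p = 0.15), and it did not pass. The read-through gene RAD51L3-RFFL covers the whole of RAD51D on the same strand. It had 118, 232 and 348 counts in siControl and 47, 166 and 36 counts in siPSF, against 2531 to 3919 for RAD51D, and reads of the shared exons can be assigned to either gene.

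**Figure D2:**
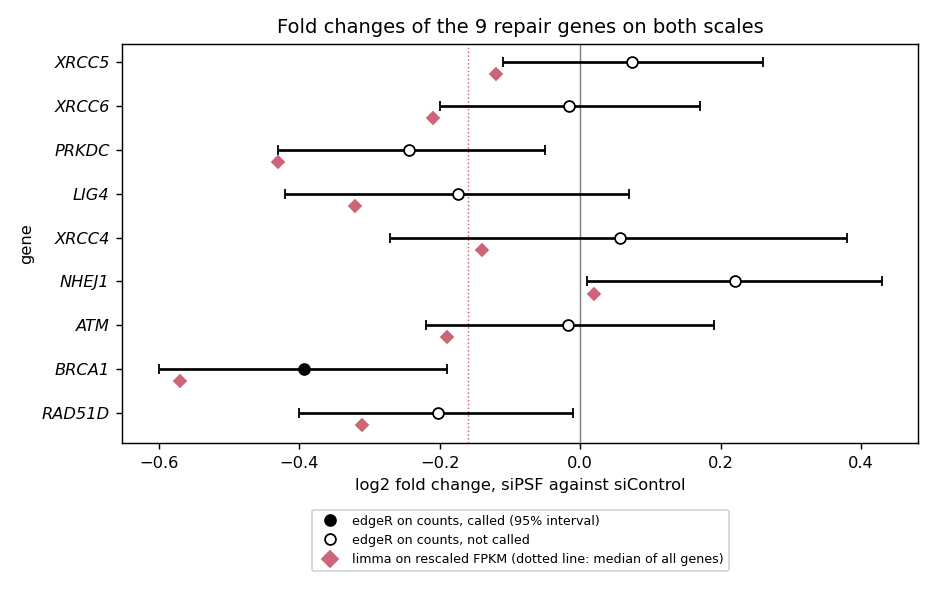
Log2 fold change of siPSF against siControl (horizontal axis) for the 9 genes: circles with 95% intervals from edgeR on the counts (filled where called), and diamonds from limma on FPKM after each library was rescaled to the same sum. The diamonds sit to the left of the circles because the median of all genes moves to -0.16 on that scale (dotted line); BRCA1 is lowest and NHEJ1 highest on both.

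The scale on which the libraries are compared sets the zero line. On FPKM rescaled to the same sum in each library, the median of all genes was -0.16 on the log2 scale, and of 3872 genes called, 463 were higher and 3409 lower in siPSF, against 1310 higher and 1628 lower on the counts. Relative to that median BRCA1 was at -0.41, PRKDC at -0.27, LIG4 at -0.16, RAD51D at -0.15, XRCC6 at -0.05 and ATM at -0.03. XRCC4 was at 0.03, XRCC5 at 0.04 and NHEJ1 at 0.18 on the same scale. Each of the 9 genes kept, relative to the median, the sign it had on the counts. The signs of XRCC5 and XRCC4 turned negative without that correction, at -0.12 and -0.14, and their intervals on the counts include 0.

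For BRCA1 and RAD51D the number of reads behind 1 unit of FPKM was not the same in all libraries. It varied by 12.9% between libraries for BRCA1 and by 17.3% for RAD51D, against 2.91% for ATM and 1.3% or less for the other 6. The libraries with high and low values were not split by treatment. The table lists 6 transcripts for BRCA1, 5 for RAD51D and 17 for ATM, and it gives 1 value per gene, so which transcripts were lower was not resolved.

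Several of the 9 genes start beside another gene on the opposite strand, so that a shared stretch of DNA lies between the start sites. The stretches beside BRCA1, the called gene, and beside LIG4, whose partner starts closest, 43 bases away, are shown here from RefSeq (GRCh38.p14), read 5′ to 3′ on the strand of the repair gene up to the base before its start. Capitals mark matches, on either strand, to CCAAT (the box bound by NF-Y) or to TTCCCGC or TTGGCGC (forms of the E2F site).
BRCA1 inner start, towards NBR2, chr17:43125365-43125556, minus strand: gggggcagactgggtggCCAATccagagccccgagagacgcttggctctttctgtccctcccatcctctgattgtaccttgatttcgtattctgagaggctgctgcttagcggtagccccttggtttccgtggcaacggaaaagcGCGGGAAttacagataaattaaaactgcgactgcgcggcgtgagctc
BRCA1 outer start, towards NBR1, chr17:43170328-43170408, minus strand: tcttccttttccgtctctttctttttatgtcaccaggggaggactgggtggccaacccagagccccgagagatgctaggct
LIG4 start, towards ABHD13, chr13:108218350-108218391, minus strand: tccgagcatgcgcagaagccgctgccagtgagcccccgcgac

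The stretch between BRCA1 and NBR2 held 1 match to CCAAT and 1 to the E2F forms, and the other stretches shown held none. In windows of 250 bases before a start, 7.81% of 35116 RefSeq promoters held TTCCCGC or TTGGCGC and 32% held CCAAT, so neither match is rare, and a match is a description of letters only. The BRCA1 stretches share a run of 16 bases, ccagagccccgagaga. From its inner start BRCA1 spans 81.1 kb, and from the outer start 126 kb.

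None of the partner genes was called by edgeR. NBR2, a long noncoding RNA that starts 193 bases from BRCA1, measured 13.9, 16.6 and 16.6 CPM in siControl and 15.3, 15.7 and 13.8 CPM in siPSF (log2 fold change -0.08, 95% interval -0.32 to 0.16; edgeR, adjusted p = 0.69). NBR1, an autophagy receptor that starts 82 bases from the outer start, measured 94.0, 89.2 and 103 CPM in siControl and 100, 102 and 97.3 CPM in siPSF (log2 fold change 0.07, interval -0.12 to 0.25). Both overlapped between the groups, where BRCA1 did not. The difference between BRCA1 and its partners was not itself tested.

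MCM4, a subunit of the replicative helicase, starts 805 bases from PRKDC. It measured 219, 224 and 224 CPM in siControl and 195, 194 and 163 CPM in siPSF, below in every library as PRKDC was, and its log2 fold change was -0.27 (edgeR, adjusted p = 0.057). MCM4 was called lower by DESeq2 and by limma on FPKM, as PRKDC was by limma. The same gene is also 1 of the 21 S and G2 phase genes read below, whose median log2 fold change was -0.14. ABHD13, 43 bases from LIG4, and TMEM167A, 153 bases from XRCC4, had positive estimates of 0.24 and 0.28 and overlapped between the groups. NPAT, 429 bases from ATM, was at -0.20, and DESI1, 252 bases from XRCC6, was at -0.09, both with overlap, and DESI1 was called on rescaled FPKM (limma, adjusted p = 0.047). Of the genes that overlap BRCA1, the noncoding LOC101929767 was at 0.33 (adjusted p = 0.13) and the pseudogene HMGN1P29 at 0.79 (edgeR, adjusted p = 0.055), with 66 to 545 counts a library. LOC101929767 lies on the same strand as BRCA1, so counting by strand would not separate them, and no strand was found for HMGN1P29. Whether strand was used in the counting is not given in the sources used here. Overlap was judged by whole gene spans, and exons were not compared. Where exons coincide, reads of overlapping genes may therefore not be told apart.

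**Figure D3:**
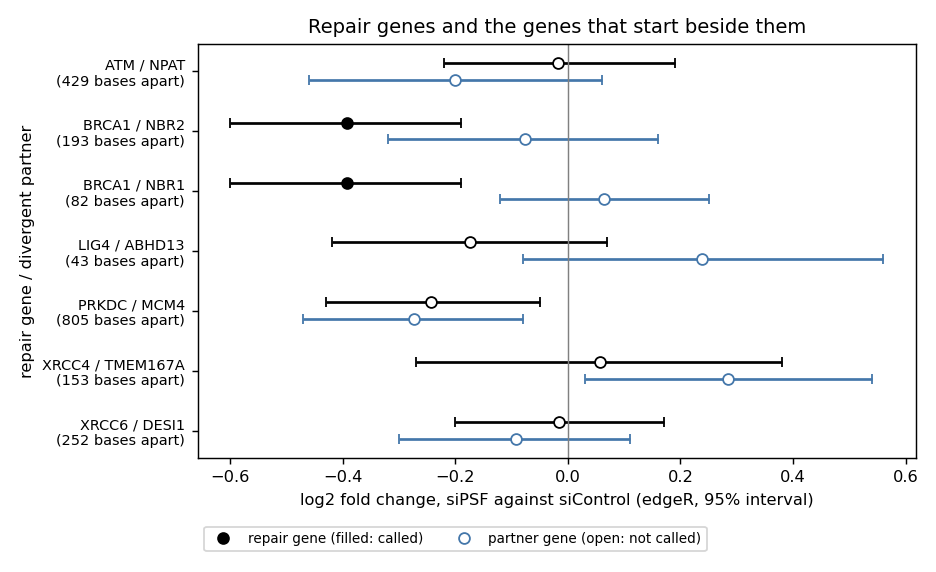
Log2 fold change of siPSF against siControl with its 95% interval (horizontal axis, edgeR) for each repair gene (black) and the gene that starts beside it on the opposite strand (blue), with the bases between the starts. BRCA1 is filled because it was called, both of its partners have intervals that include 0, and PRKDC and MCM4 have like estimates of -0.24 and -0.27.

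The other genes of double-strand break repair were read from the same fit. Of 71 tested, 12 were called lower and 3 higher in siPSF, against 8.27% and 6.65% of all genes, and their median log2 fold change was -0.09. Among other end joining factors 0 of 10 were called in either direction by edgeR (1 at an unadjusted p under 0.05, TDP2, which DESeq2 called higher, as did edgeR without siControl replicate 3), with estimates from -0.14 for the lowest to 0.32 for the highest. The 6 end joining genes of the 9 had no call by edgeR either. DNTT, the template-free polymerase of lymphocytes, was not in the table. In alternative end joining and single-strand annealing 1 of 6 was called, POLQ, the polymerase of that pathway, at -0.32 (adjusted p = 0.043), and it was not called when any 1 library was left out.

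The genes of homologous recombination outside the 9 were in 4 lists. Over resection, paralogs of RAD51D and their cofactors, mediators and junction resolution, 7 of 33 were called lower and 1 higher, with a median of -0.11, where 8.27% of all genes tested were called lower and 6.65% higher. Of the paralogs that work with RAD51D, XRCC2, its direct partner, measured 56.9, 58.6 and 69.8 CPM in siControl and 41.4, 35.5 and 41.1 CPM in siPSF (log2 fold change -0.65; edgeR, adjusted p = 0.0016). RAD51B, at 6.6, 5.52 and 5.79 CPM against 3.66, 2.88 and 2.38 CPM, was at -1.0 on the log2 scale (edgeR, adjusted p = 0.0023), and XRCC3 at -0.38 (adjusted p = 0.030). RAD51C, which joins the complex of RAD51D, had a positive estimate of 0.17 (edgeR, adjusted p = 0.38) and was called higher without siPSF replicate 3. RAD51D, at -0.20, lay between these, and its difference from the other paralogs was not tested. Of the 8 paralogs and cofactors 3 were called lower, and 2 of the 3, RAD51B and XRCC2, remained called without siControl replicate 1, siControl replicate 2 or siPSF replicate 1.

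Among mediators, BRCA2, which acts on the resected strands, measured 28.8, 29.8 and 36.7 CPM in siControl and 20.3, 17.8 and 20.6 CPM in siPSF. No siPSF library reached the siControl range, and the log2 fold change was -0.70 ± 0.115 SE (edgeR, adjusted p = 0.0018). RAD54L, a motor protein of strand exchange, was at -0.53 (adjusted p = 0.0019), and BRIP1, the helicase that binds BRCA1, at -0.47 (adjusted p = 0.0077). SEM1, a small protein that binds BRCA2 and is also a subunit of the proteasome, rose by 0.29 (adjusted p = 0.041), a call that held only without siControl replicate 1 or siPSF replicate 3 among the 6 fits with 1 library left out. In junction resolution TOP3A was called at -0.32 (adjusted p = 0.016), and it was lost without siControl replicate 2 or siPSF replicate 1. In resection 0 of 7 were called by edgeR (2 at an unadjusted p under 0.05), and the nuclease DNA2 was closest at -0.31 (adjusted p = 0.064). DESeq2 called 1, DNA2, and without siPSF replicate 3 edgeR called the helicase BLM.

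Of 22 genes of break signalling and pathway choice, 4 were called lower and 2 higher, the latter close to the 6.65% of all genes called higher (8.27% were called lower). SHLD1, a subunit of shieldin, which protects ends from resection, measured 7.36, 8.36 and 7.0 CPM in siControl and 4.13, 4.36 and 3.88 CPM in siPSF (-0.88, edgeR adjusted p = 0.0010). The checkpoint mediator CLSPN was at -0.52 (edgeR, adjusted p = 0.0025). BABAM2 at -0.41 and ABRAXAS1 at 0.69 encode subunits of the same BRCA1-A complex, and they were called in opposite directions. ABRAXAS1 measured 6.19, 5.77 and 7.01 CPM in siControl and 10.8, 8.22 and 11.7 CPM in siPSF. Without siControl replicate 2, SHLD1 and CLSPN were the 2 that remained called lower, and 0 were called higher by edgeR. Without siPSF replicate 1 SHLD1 and CLSPN were again the 2 called lower. On rescaled FPKM neither SEM1 nor ABRAXAS1 was called by limma, with estimates of 0.27 and 0.54 relative to the median.

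**Figure D4:**
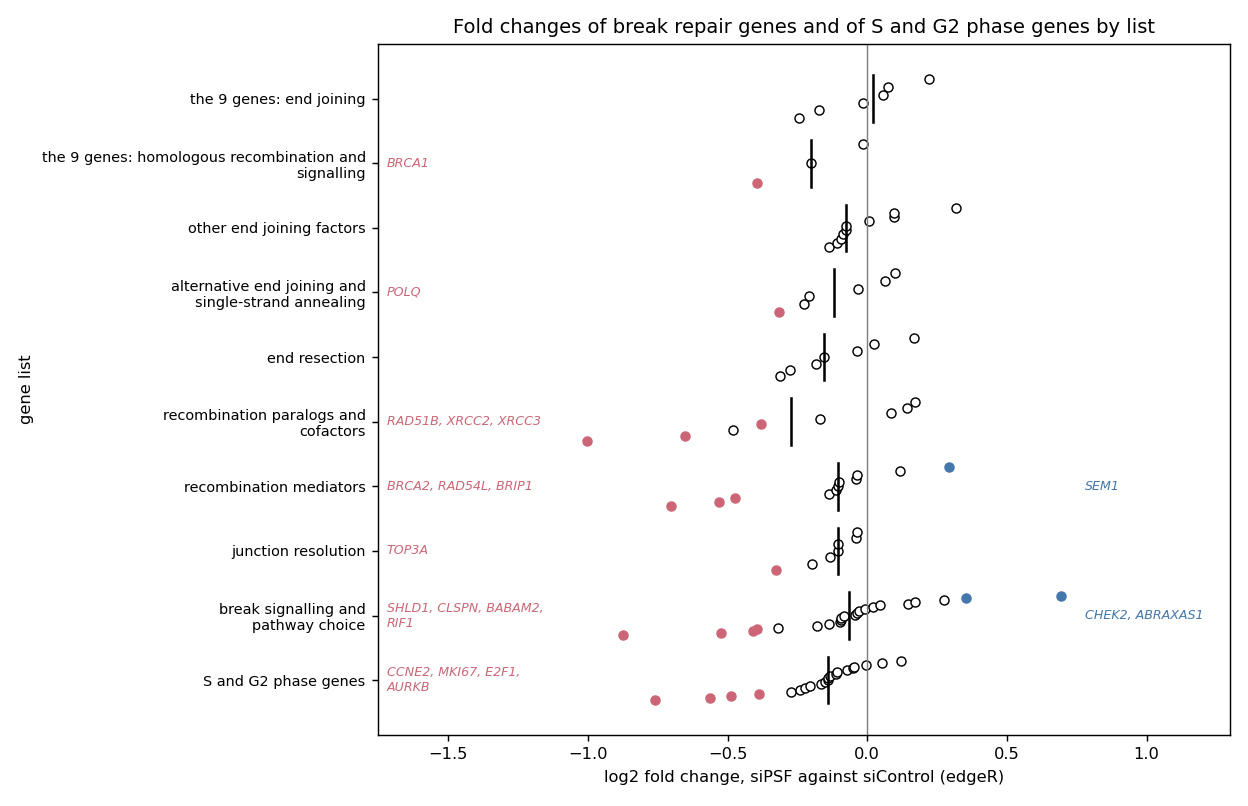
Log2 fold change of siPSF against siControl (horizontal axis, edgeR) for the tested genes of each repair list and of S and G2 phase (rows), filled where called, with the median as a black bar and the called genes named from lowest to highest at the sides. No gene of the end joining rows other than POLQ of the alternative pathway is filled. The rows of paralogs and cofactors, of mediators and of signalling hold 10 of the 12 other repair genes called lower. These rows also hold 8, 11 and 22 of the 71 other repair genes tested, and 8.27% of all genes were called lower.

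Homologous recombination works in S and G2 phase, so a list of cell cycle genes, called S and G2 phase genes here, was read as well. Not every gene in it is particular to those phases. Of 21 tested, 4 were called lower and 0 higher by edgeR, against 8.27% and 6.65% of all genes, and 17 were not called. At an unadjusted p under 0.05 there were 8, all lower, against 29.8% of all genes in either direction. The median log2 fold change was -0.14. Their summed level ran from 3143 to 3344 CPM in siControl and from 2784 to 2984 CPM in siPSF, so the groups did not overlap. MCM7 was the largest part of that sum, at a mean of 736 CPM in siControl and 670 CPM in siPSF, and it was not called. Estimates were negative for 19 of the 21 genes. CCNB1, at 0.12, was higher in every siPSF library than in any siControl library. CDK1 was at 0.05, PCNA at -0.003 and TOP2A at -0.05, and edgeR called none of these. The called genes were the proliferation marker MKI67 at -0.56, the cyclin CCNE2 at -0.76, the transcription factor E2F1 at -0.49 and the mitotic kinase AURKB at -0.39, which was not called without siControl replicate 1 or 2 or siPSF replicate 2. The part of these in the lower BRCA1 was not tested.

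Long genes were also called lower more often than short ones. Of all protein-coding genes of 100 kb or more, 25.1% of 2770 were called lower, and of the shorter ones 4.65% of 11646. Of the repair genes, with the 9 included, 7 of 18 at 100 kb or more were called lower (38.9%) and 6 of 62 shorter ones (9.68%). BRCA1 is 126 kb long in RefSeq by its outer start and 81.1 kb by its inner start, so it falls on either side of the limit. The counts above take it at 126 kb, among the 7. XRCC4 at 297 kb and ATM at 146 kb are long genes that were not called, with estimates of 0.06 and -0.02, and PRKDC at 187 kb was at -0.24. Among the shorter genes called lower were XRCC2 at 31.4 kb and XRCC3 at 17.8 kb. The part of gene length in the results of the 9 genes was not tested.

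**Figure D5:**
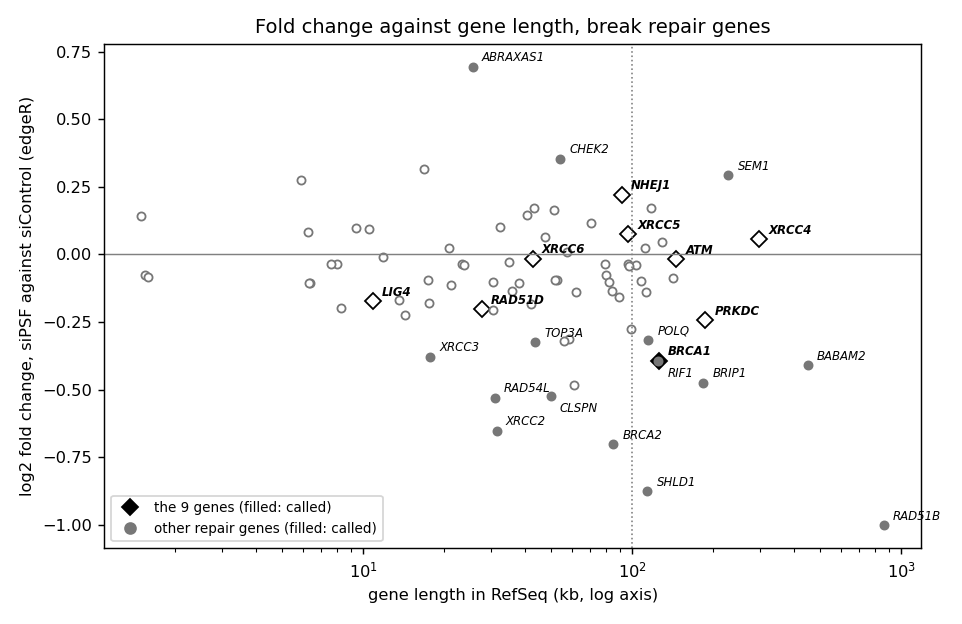
Log2 fold change of siPSF against siControl (vertical axis, edgeR) against gene length in RefSeq (horizontal log axis, kb) for the 9 genes (diamonds) and the other repair genes (circles), filled where called, with a dotted line at 100 kb. RAD51B at 863 kb is the longest and lowest, while XRCC4, ATM and the long SEM1 lie at or above -0.02.

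The genes whose levels most resembled BRCA1 over the 6 libraries, among 14678 with a mean of at least 1 CPM, were the noncoding LOC105373156 (Pearson r = 0.998 of log2 CPM), KIF20B, a mitotic kinesin (r = 0.997), and LRRC57 (r = 0.997). KIF20B measured 20.2, 21.4 and 24.4 CPM in siControl and 18.2, 15.7 and 16.3 CPM in siPSF (log2 fold change -0.40, edgeR adjusted p = 0.029), nearly the same profile as BRCA1 at a lower level. LRRC57 had the same order of libraries with a fold change of only -0.08 (adjusted p = 0.62). With 6 points that share depth and treatment, high values are common, and 318 genes had an r above 0.95.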

How the data were processed

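Poly(A)-selected RNA from 6 libraries (3 siControl, 3 siPSF) was sequenced by the authors as 50 bp paired-end reads. The study's methods name rRNA removal, TopHat mapping to hg38 and counting on RefSeq, and the submitters' processing notes name Trimmomatic, HISAT2 2.1.0 and StringTie 2.1.3b on GRCh38. The sources also differ on whether the library kit was stranded. The authors deposited raw read counts per gene and FPKM values, which are scaled to exon length and mapped reads. The FPKM are not simply the counts divided by a fixed length per gene, because the reads behind a unit of FPKM varied between libraries for BRCA1 and RAD51D. Groups came from the sample titles.

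Counts were filtered with filterByExpr (19694 of 21301 genes kept), scaled by TMM and tested with edgeR 4.0.16 (quasi-likelihood, R 4.3.3), adjusted over all genes and called under 0.05. Alternatives used DESeq2 1.42.0 and limma 3.58.1 (FPKM, pseudocounts 0.5 and 0.1, mean of at least 0.5). The fit was tested on simulated data. All 9 genes are named; from the other lists those called with the smallest p (at most 4 a list), neighbours within 1000 bases of a start or overlapping, and the 3 genes most like BRCA1. TDP2, DNA2, BLM, RAD51C, MCM7, CCNB1, CDK1, PCNA, TOP2A and the named cell type markers, and the further called genes shown in the figures, were named after their values were seen. Of the lists, 1 gene is not reported here and is left out of all list counts. Members and lists were chosen with earlier results of these data known. The biological coefficient of variation was 12.6%. Promoter sequences came from RefSeq GRCh38.p14, where XRCC5 and PRKDC had no entry used here. Intervals are 95%.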

Additional observations from a re-analysis of the deposited data

How the results depend on the processing

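BRCA1 was called in 12 of 13 alternatives, with log2 fold changes from -0.449 to -0.317 when 1 library was left out. Leaving out 1 library gave 0 to 1 called genes among the 9 (0 without siPSF replicate 2) and 1500 to 3140 over all genes, with 1500 without siControl replicate 2 and 1754 without siControl replicate 3, against 2938. By limma on log2(FPKM + 0.5) and log2(FPKM + 0.1), 2 of the 9 were called (PRKDC and BRCA1), and on rescaled FPKM 3 were (XRCC6, PRKDC and BRCA1). XRCC6 then had an estimate of -0.209 (adjusted p = 0.049). The sign turned for XRCC5 (-0.005, -0.12 and -0.005 by limma on FPKM + 0.5, rescaled and FPKM + 0.1) and for XRCC4 (-0.034, -0.135 and -0.038), neither of them called. With 1 library left out, estimates ran from -0.1 to 0.167 for XRCC4, from -0.056 to 0.038 for XRCC6 and from -0.097 to 0.08 for ATM, and the XRCC6 to XRCC5 balance ran from -0.17 to 0.01. The LIG4 to XRCC4 and NHEJ1 to XRCC4 balances kept their sign in the 8 alternatives each, but ran from -0.41 to -0.07 and from 0.07 to 0.33 with 1 library left out. LIG4, NHEJ1 and RAD51D kept sign and stayed uncalled in all 13. The cause of these shifts was not tested. By limma on FPKM + 0.5, rescaled FPKM and FPKM + 0.1 in turn, genes called lower numbered 1, 3 and 1 of the other end joining factors (0 by edgeR), 2, 3 and 2 of alternative end joining (1), and 8, 13 and 8 of the S and G2 genes (4). On rescaled FPKM 3 were called in resection (0), 5 among mediators (3), 4 in junction resolution (1) and 8 in signalling (4).

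Equal replicate numbers are not stated to mark pairs. Deviations of same-numbered libraries from their group mean correlated at -0.0222, 0.0561 and 0.0559. With means of only 3 libraries, these values cannot decide whether the libraries were made as pairs. With the replicate number as a block 3029 genes were called, BRCA1 (adjusted p = 0.025) alone among the 9, and the partner balances were -0.09, -0.22 and 0.17. With 3 libraries in each group, the 95% interval of the log2 fold change reached 0.18 to 0.32 on either side for the 9 genes. This width reflects variation between libraries as well as depth. That width belongs to the unadjusted test, and a call after correction needs a larger difference. PRKDC, NHEJ1 and RAD51D had an unadjusted p under 0.05 (edgeR) and were still not called. Differences of this size or smaller in the 8 uncalled genes can therefore have been missed.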
